A study of Mus musculus with 103 samples.

Results

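The complement receptors described here are 4 genes of the mouse hippocampus: Itgam and Itgb2, the chains of an integrin that binds fragments of complement C3, and C3ar1 and C5ar1, the receptors for the anaphylatoxins C3a and C5a. They were taken by name from a table of 48526 gene rows, and all 4 passed the filter on low values, with 26272 genes tested in all. C5ar1 passed it only through groups other than wild-type. The table came from RNA-seq of hippocampi of male mice, 1 mouse per library, killed at 2, 4, 8 or 18 months of age, and each value is in TPM, the unit Salmon gives for a transcript's share of its library with transcript length taken into account. Here 89 libraries are described. The study followed lines of mice that carry human transgenes of Alzheimer's disease and of tauopathy and asked how gene expression moved with age and pathology.

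The wild-type group (WILD, strain C57BL/6J) held 8, 8, 8 and 7 mice at the 4 ages in order. TAS10 mice (4, 2, 3 and 4) carried a human APP transgene with the double mutation K670N and M671L, hemizygous, on the Thy1 promoter of neurons. HET_TASTPM mice (4 at each age) were hemizygous for this transgene and for a further human transgene, also on the Thy1 promoter. HO_TASTPM mice (4, 4, 4 and 3) carried the same pair bred to homozygosity. TAU mice (4, 4, 4 and 2) carried human MAPT with the mutation P301L, hemizygous, on the Camk2a promoter of forebrain neurons. The transgenes are thus driven in neurons, while the receptors are chiefly genes of microglia. The mice of each line and age were compared with wild-type mice of that age, so all lines of 1 age share their controls. WILD, HO_TASTPM and HET_TASTPM mice were also compared with mice of their own line at the age before. Further comparisons within a line were 18 against 2 months in WILD and TAS10 and 18 against 8 months in TAU.

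Reads of the transgenes checked the labels. Wild-type libraries held 386 to 580 TPM of App, 123 to 191 of Mapt and 370 to 529 of Thy1. App was at 1300 to 2234 TPM in HET_TASTPM libraries and, outside 1 library each, at 919 to 3014 in HO_TASTPM and 1424 to 2034 in TAS10 libraries. The exceptions were the library labelled TAS10, 8 months, mouse 2443, with App at 479 and Thy1 at 409 TPM, and the library labelled HO_TASTPM, 8 months, mouse 452, with App at 532 but Thy1 at 1791 TPM. HO_TASTPM mice 966 (2 months), 811 and 812 (4 months) held App at 1019, 1100 and 919 and Thy1 at 1432, 1747 and 1258 TPM. That is under every HET_TASTPM library (Thy1 at 1815 or more), so these reads do not settle whether they are homozygous. Mapt was at 397 to 1095 TPM in TAU libraries other than mouse 1809 of 2 months (174) and mouse 1817 of 4 months (204). By the balance of genes of neighbouring brain regions against genes of hippocampal neurons, 11 of the 89 libraries stood apart (scores of 2.12 or more, against 1.24 or less in the rest): HO_TASTPM 1 at 2 months, 3 at 4 months and 1 at 8 months (mouse 452), TAS10 1 at 2 months, TAU 1 at 2 and 2 at 4 months, and WILD 2 at 8 months. None of the 18-month libraries was among them. Results that rest on these 11 are given with and without them, as an effect size alone where 1 mouse of a group is left.

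Complement receptor 3 is a heterodimer of the integrin alpha M chain (CD11b, from Itgam) and the beta 2 chain (CD18, from Itgb2). It sits on myeloid cells, in the brain above all on microglia, and lets them adhere to and engulf particles coated with the C3 fragment iC3b, which in mouse brain includes tagged synapses. The beta 2 chain is shared by the other leukocyte integrins, so Itgb2 serves more than one receptor. C3ar1 and C5ar1 encode G protein-coupled receptors for the small peptides released when C3 and C5 are cleaved, and signal through Gi proteins to movement, calcium release and the oxidative burst. Itgam, Itgb2 and many other myeloid genes are known targets of the ETS factor PU.1, whose binding sites hold a GGAA core.

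In GRCm38, with the GENCODE M21 annotation, Itgam (ENSMUSG00000030786) lies on chromosome 7 from 128062640 to 128118491 on the plus strand. Its longest coding transcript has 30 exons and 4682 bases, and Itgax, the alpha chain of complement receptor 4, lies 11056 bases from it. The readthrough gene Gm49368 overlaps Itgam and has no row of its own here, so reads of the pair cannot be told apart. Itgb2 (ENSMUSG00000000290) lies on chromosome 10 from 77530252 to 77565708, plus strand, with 16 exons and 2970 bases. C3ar1 (ENSMUSG00000040552) lies on chromosome 6 from 122847138 to 122856161, minus strand, and has 1 transcript of 2 exons and 4305 bases. C5ar1 (ENSMUSG00000049130) lies on chromosome 7 from 16246743 to 16259540, minus strand, 2589 bases from C5ar2, the gene of the other C5a receptor.

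The 250 bases before the RefSeq start (GRCm38.p6) are shown for the 3 members with an entry, because the 4 receptors moved together and a shared letter pattern is the simplest thing to look for. Capitals mark the hexamers GAGGAA and AGGAAG, which both hold the GGAA core, on either strand (TTCCTC and CTTCCT on the other). The hexamers can overlap each other. The stretch of C5ar1 lies partly inside the gene as GENCODE draws it, since other transcripts start upstream.
Itgam, chr7:128062390-128062639, plus strand: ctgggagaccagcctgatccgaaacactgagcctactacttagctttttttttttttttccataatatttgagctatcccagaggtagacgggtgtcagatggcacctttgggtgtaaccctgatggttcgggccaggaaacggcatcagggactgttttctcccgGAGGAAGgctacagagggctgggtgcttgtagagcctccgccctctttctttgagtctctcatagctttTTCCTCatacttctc
C3ar1, chr6:122856158-122856407, minus strand: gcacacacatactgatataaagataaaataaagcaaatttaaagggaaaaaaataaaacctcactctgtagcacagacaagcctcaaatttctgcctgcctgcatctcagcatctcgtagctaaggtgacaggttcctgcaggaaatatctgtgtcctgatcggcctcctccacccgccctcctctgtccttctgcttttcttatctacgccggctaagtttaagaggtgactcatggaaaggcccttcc
C5ar1, chr7:16259339-16259588, minus strand: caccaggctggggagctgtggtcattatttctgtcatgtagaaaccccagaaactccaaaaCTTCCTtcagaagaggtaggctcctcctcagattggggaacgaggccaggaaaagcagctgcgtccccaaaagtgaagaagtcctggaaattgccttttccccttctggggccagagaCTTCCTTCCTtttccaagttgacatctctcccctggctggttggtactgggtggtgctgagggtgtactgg
Itgam held GAGGAA at 84 and 15 bases before the start and AGGAAG at 83. C5ar1 held AGGAAG at 189, 71 and 67 bases, all on the other strand, and C3ar1 held neither. Of 27025 promoters of this length, 23.1% held GAGGAA and 29.2% AGGAAG, so a match is common and is a description of letters only. Itgb2 had no entry.

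In wild-type hippocampus the integrin chains were the more abundant receptors on the TPM scale, which is per length. Over the 31 wild-type libraries Itgam lay at 5.34, 6.97 and 14.3 TPM (lowest, median, highest), Itgb2 at 1.21, 2.08 and 3.56, C3ar1 at 0.402, 0.615 and 1.03, and C5ar1 at 0.147, 0.379 and 0.885. The ranges of Itgam and Itgb2 and those of Itgb2 and C3ar1 did not overlap, whereas C3ar1 and C5ar1, neighbours in the order, overlapped over most of their ranges. No member was at 0 in any of the 89 libraries, but values this low are imprecise, above all for C5ar1, and the table does not hold the number of reads behind them. The wild-type group means of C5ar1 were 0.375 to 0.482 TPM. It thus passed the filter, a mean of 0.5 TPM in 1 or more groups, only through groups where it was higher. Its calls against wild-type are to be read with this limit.

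The levels moved little with age in wild-type mice. The medians at 2, 4, 8 and 18 months were 6.73, 6.71, 6.87 and 8.18 TPM for Itgam, 1.84, 1.79, 2.11 and 2.51 for Itgb2, 0.586, 0.572, 0.698 and 0.844 for C3ar1, and 0.356, 0.376, 0.377 and 0.434 for C5ar1. The tests were limma fits of log2(TPM + 0.5) over all groups, with p-values adjusted over all genes by Benjamini-Hochberg and called at 0.05. No member was called at 4 against 2 months (3.03% of all genes called), 8 against 4 (0.339%) or 18 against 8 (0.297%), and in each of these limma fits 0 members had an unadjusted p under 0.05. At 18 against 2 months none was called either (9.56% of all genes), although 3 members (Itgam, Itgb2 and C3ar1) had an unadjusted p under 0.05.

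In HO_TASTPM mice all 4 receptors rose by 8 months. C3ar1, Itgb2 and C5ar1 were already called at 4 months. Without the libraries that stood apart that group holds 1 mouse, with no spread of its own, so the calls cannot be checked in that way. At 2 months no member was called against wild-type by limma (1.86% of all genes called), and 1 (C3ar1) had an unadjusted p under 0.05. Members called were 3 of 4 at 4 months (12.7% of all genes called), 4 at 8 months (9.08%) and 4 at 18 months (7.83%). Every HO_TASTPM value lay above every wild-type value for all 4 members at 8 and at 18 months. In bulk tissue, more cells of a type, more RNA per cell and less RNA from other cells cannot be told apart. This holds here and in every result that follows. Of the 4 HO_TASTPM libraries of 4 months 3 are among those that stood apart.

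Itgam, the alpha chain, was at 6.72, 6.77, 6.87 and 7.01 TPM in the 4 HO_TASTPM mice of 2 months, against 5.42, 6.73 and 9.84 in wild-type. At 4 months it was at 6.04, 8.76, 10.3 and 10.9 TPM against 5.34, 6.71 and 10.8, with 1 of 4 mice above the wild-type range. The groups overlapped at both ages, and the difference at 4 months was 0.28 on the log2 scale (SE 0.17, adjusted p = 0.320, limma). At 8 months it was at 15.2, 18.4, 21.9 and 25.6 TPM, against 5.74, 6.87 and 13.9 in wild-type. At 18 months the 3 mice were at 18.9, 20.8 and 23.2 TPM, against 7.33, 8.18 and 14.3. The groups no longer overlapped, and the log2 differences were 1.40 at 8 months (SE 0.17, adjusted p = 2.78e-10) and 1.21 at 18 months (SE 0.19, adjusted p = 9.16e-07), limma's adjusted p in both cases.

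Itgb2, the beta 2 chain, was at 1.64 to 2.06 TPM in HO_TASTPM mice of 2 months, within the wild-type range of 1.55 to 2.98. At 4 months it was at 2.63, 2.91, 4.62 and 4.69 TPM, against 1.21, 1.79 and 2.75 in wild-type, and 3 of 4 mice lay above every wild-type mouse (log2 difference 0.87, SE 0.19, limma adjusted p = 0.00133). Without the libraries that stood apart, which leaves 1 HO_TASTPM mouse at this age, the difference was 1.19. At 8 months Itgb2 was at 10.3, 13.1, 13.4 and 13.8 TPM, against 1.56, 2.11 and 3.39. At 18 months it was at 12.4, 12.9 and 16.3 TPM, against 2.08, 2.51 and 3.56. The lowest transgenic mouse was thus well above the highest wild-type mouse at both ages. The log2 differences were 2.33 (SE 0.19, adjusted p = 4.54e-17) and 2.16 (SE 0.22, adjusted p = 3.68e-13) by limma, larger in size than those of its partner chain.

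C3ar1, the C3a receptor, was the first member to lie outside the wild-type range. At 2 months the HO_TASTPM mice were at 0.798, 0.803, 0.906 and 0.917 TPM and wild-type mice at 0.402, 0.586 and 0.753. All 4 lay above the wild-type range, with a log2 difference of 0.31 that did not pass (SE 0.13, limma adjusted p = 0.230; without the library that stood apart 0.33, 0.256). At 4 months they were at 1.18, 1.21, 1.82 and 2.13 TPM against 0.418, 0.572 and 0.659, again with no overlap (log2 difference 0.95, SE 0.13, limma adjusted p = 5e-07). The single mouse left without the libraries that stood apart, which has no spread of its own, gave 1.13. At 8 months C3ar1 was at 4.75, 5.63, 5.70 and 5.89 TPM against 0.460, 0.698 and 0.917, and at 18 months at 4.36, 5.34 and 5.82 against 0.590, 0.844 and 1.03. The transgenic mice of these ages lay close together and far from wild-type, at log2 differences of 2.33 (SE 0.13, adjusted p = 2.08e-26) and 2.08 (SE 0.15, adjusted p = 2.17e-20) by limma.

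C5ar1, the C5a receptor and the member with the lowest wild-type median, varied widely among mice of a group. At 2 months it was at 0.269 to 0.635 TPM in HO_TASTPM mice and 0.147 to 0.885 in wild-type. At 4 months the values were 0.398, 0.801, 0.962 and 2.14 TPM against 0.256, 0.376 and 0.735, and 3 of 4 mice lay above the wild-type range. The log2 difference of 0.66 (SE 0.24, limma adjusted p = 0.049) rested on single mice: it was lost in 8 of 12 fits with 1 mouse left out, was 0.38 without mouse 810 (adjusted p = 0.362, limma), and was 0.50 in the 1 mouse left without the libraries that stood apart. It was also lost, by limma, with a pseudocount of 0.1 (adjusted p = 0.0918), with no filter (0.0642), with quantile normalization (0.161) and when the fit held just these groups (0.128). At 8 months C5ar1 was at 1.92, 1.94, 2.17 and 3.08 TPM against 0.248, 0.377 and 0.549. At 18 months it was at 1.76, 2.39 and 3.19 against 0.166, 0.434 and 0.762. Here the groups were well apart, with log2 differences of 1.65 (SE 0.24, adjusted p = 5.89e-08) and 1.59 (SE 0.27, adjusted p = 3.66e-06) by limma.

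**Figure D1:**
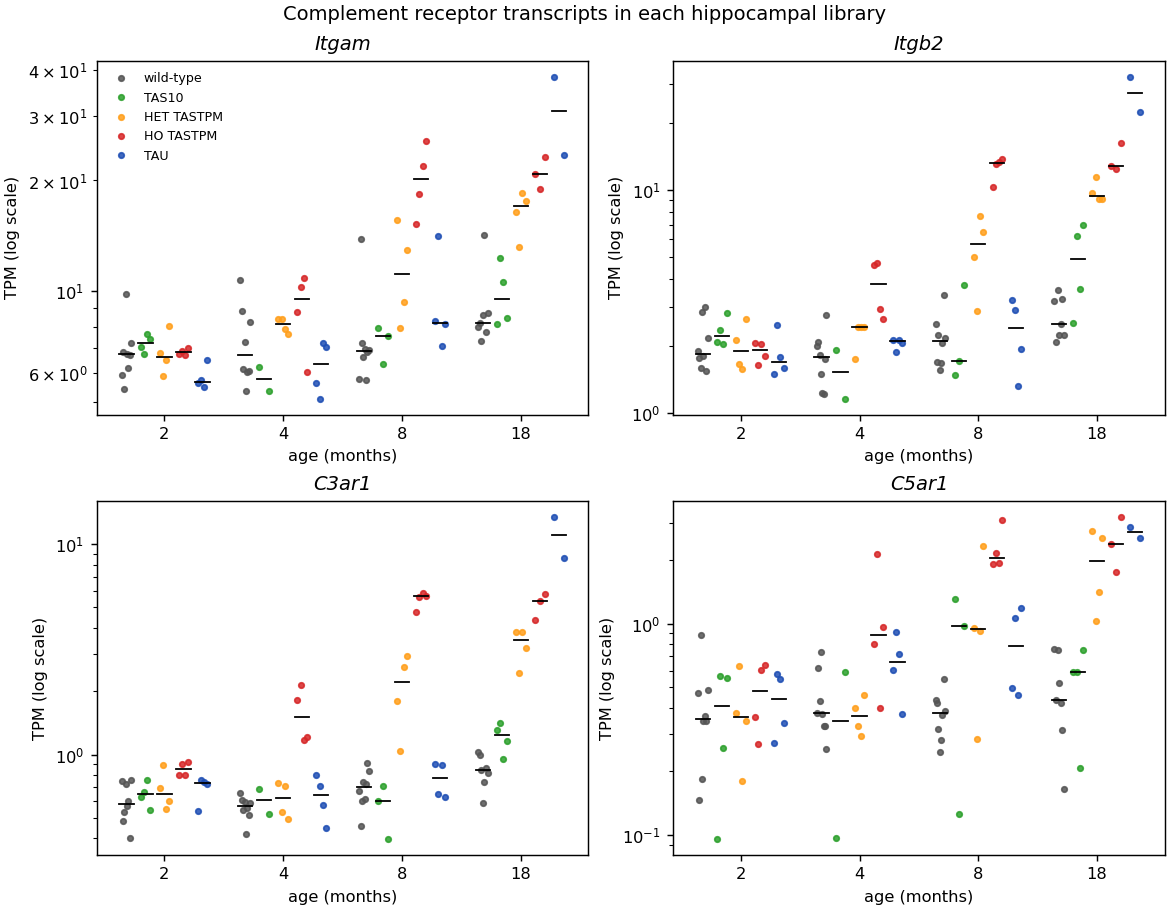
TPM of Itgam, Itgb2, C3ar1 and C5ar1 (1 panel each, log axis) in each of 89 libraries by age in months and line, with 1 point per mouse and a bar at each group's median. At 8 and 18 months all HO_TASTPM mice sit above all wild-type mice in every panel, and the 2 TAU mice of 18 months reach 23.5 and 38.2 TPM of Itgam.

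The HO_TASTPM calls of 8 and 18 months did not rest on the libraries in doubt. Without those that stood apart, which drops mouse 452 and 2 wild-type mice, the log2 differences at 8 months were 1.38 for Itgam, 2.30 for Itgb2, 2.30 for C3ar1 and 1.66 for C5ar1, and all 4 were called. The 3 HO_TASTPM libraries of 18 months carry lane number 3, as do 3 of the 7 wild-type libraries. A lane number need not stand for a single lane, since some libraries with the same number share an index pair. Within that lane number the differences were 1.38, 2.07, 2.01 and 1.55 in the same order, all called by limma.

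In HET_TASTPM mice the calls began at 8 months. At 2 and 4 months no member was called against wild-type (0.148% and 0.693% of all genes called) and 0 had an unadjusted p under 0.05 in limma. At 8 months all 4 were called (5.44% of all genes), and at 18 months again all 4 (5.82%). The 8-month values spread widely: C3ar1 was at 1.04, 1.80, 2.62 and 2.95 TPM, all above wild-type, while Itgam was at 7.96, 9.36, 12.96 and 15.6, with 1 of 4 above the wild-type range. Itgb2 was at 2.86, 4.98, 6.48 and 7.67 TPM and C5ar1 at 0.284, 0.928, 0.954 and 2.33, each with 3 of 4 mice above wild-type. So only C3ar1 was clear of wild-type in every HET_TASTPM mouse at this age.

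The log2 differences at 8 months were 1.13 for Itgb2 (SE 0.19, adjusted p = 5.08e-05) and 1.06 for C3ar1 (SE 0.13, adjusted p = 7.23e-09), both by limma. Those of Itgam (0.59, SE 0.17, limma adjusted p = 0.0262) and C5ar1 (0.75, SE 0.24, limma adjusted p = 0.0435) were less firm. Without the libraries that stood apart they were 0.53 and 0.74 (limma adjusted p = 0.0659 and 0.0605), and neither was called. Leaving out single mice ended the Itgam call for 4 mice (1462, 460, 2416 and 478), at 0.43 without mouse 460. It ended the C5ar1 call for 8 of 12 mice, at 0.43 without mouse 478.

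At 18 months the HET_TASTPM mice were at 13.2, 16.4, 17.6 and 18.5 TPM of Itgam and 9.12, 9.14, 9.72 and 11.5 of Itgb2. They were at 2.45, 3.22, 3.82 and 3.84 TPM of C3ar1 and 1.03, 1.41, 2.54 and 2.75 of C5ar1. All lay above wild-type, apart from the lowest for Itgam, which the single wild-type mouse at 14.3 TPM exceeded. The log2 differences were 0.86 (SE 0.17, adjusted p = 0.000408), 1.70 (SE 0.20, adjusted p = 3.51e-10), 1.51 (SE 0.13, adjusted p = 5.43e-15) and 1.27 (SE 0.24, adjusted p = 0.000155) in the order Itgam, Itgb2, C3ar1 and C5ar1, by limma. These libraries carry lane numbers 7 and 8, which no wild-type library of that age has, so no value within a lane number exists. With lane number as a covariate the differences were 0.87, 1.87, 1.62 and 1.55, all called.

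In TAS10 mice, with APP alone, no member was called at 2 (0.213% of all genes called), 4 (0.164%), 8 (0.129%) or 18 months (0.0571%), and the members with an unadjusted p under 0.05 in limma numbered 0 at the first 3 ages and 2, Itgb2 and C3ar1, at 18 months. At 18 months Itgam was at 8.17, 8.44, 10.6 and 12.3 TPM and C5ar1 at 0.207, 0.588, 0.590 and 0.748, both inside the wild-type range. Itgb2 was at 2.54, 3.60, 6.19 and 6.99 TPM and C3ar1 at 0.952, 1.16, 1.31 and 1.41, each with 3 of 4 mice above all wild-type mice. Their log2 differences were 0.65 (SE 0.20, limma adjusted p = 0.398) and 0.35 (SE 0.13, limma adjusted p = 0.756), against 0.14 for Itgam and 0.07 for C5ar1. Without mouse 2099 the Itgb2 difference was 0.89 and was called (limma adjusted p = 0.0367), and without mouse 2187 it was 0.46 (limma adjusted p = 1). Against their own 2-month mice the TAS10 mice of 18 months had 2 members called (1.39% of all genes), Itgb2 at 0.84 (limma adjusted p = 0.0405) and C3ar1 at 0.57 (limma adjusted p = 0.0396), and these calls too were lost when single mice were left out, Itgb2 for 5 mice and C3ar1 for 6 of the 8, and that of Itgb2 also without the library that stood apart (limma adjusted p = 0.0634).

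TAU mice showed no call up to 8 months, and at 18 months they held the highest single values of Itgam, Itgb2 and C3ar1 among the 89 libraries. The share of all genes called was 0.586% at 2, 7.46% at 4 and 0.735% at 8 months with 0 members called by limma at each, and 0, 0 and 1 of the members (C5ar1) had an unadjusted p under 0.05. At 8 months Itgam was at 7.09, 8.12, 8.28 and 14.1 TPM and C5ar1 at 0.460, 0.498, 1.07 and 1.19, with 1 and 2 of 4 mice above the wild-type range, while Itgb2 (1.32 to 3.20) and C3ar1 (0.632 to 0.898) did not exceed wild-type. At 18 months only 2 mice were measured. They were at 23.5 and 38.2 TPM of Itgam, 22.4 and 32.1 of Itgb2, 8.60 and 13.4 of C3ar1, and 2.55 and 2.86 of C5ar1. Both were above every wild-type mouse for every member, and all 4 were called, as were 22.4% of all genes. The log2 differences were 1.72 (SE 0.22, adjusted p = 1.28e-09), 3.10 (SE 0.25, adjusted p = 1.09e-17), 3.08 (SE 0.17, adjusted p = 8.66e-27) and 1.73 (SE 0.31, adjusted p = 6.23e-06) by limma, in the same order. With 1 mouse left out all 4 were called each time, but where a TAU mouse was left out the other stood alone and its spread was taken from the other groups. The differences ranged over 1.37 to 2.06, 2.85 to 3.36, 2.77 to 3.39 and 1.65 to 1.80. Of all genes 3131 were called higher and 2759 lower in these TAU mice. Thy1, a gene of neurons, was at 178 and 282 TPM in them, against 370 to 442 in wild-type mice of 18 months. TPM is a share of the library, so less RNA from other cells raises it. The part of this in the receptor levels was not tested.

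**Figure D2:**
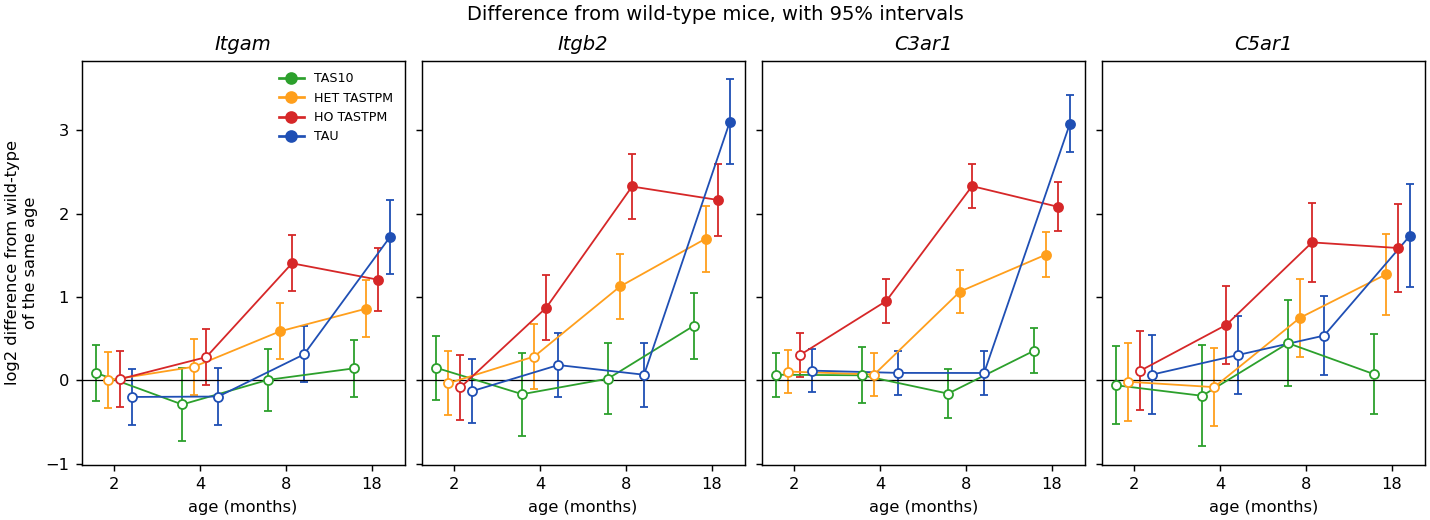
Log2 difference of each member from wild-type mice of the same age, on the log2(TPM + 0.5) scale, with 95% confidence intervals from limma, by line and age, with filled points where the adjusted p is under 0.05. In HO_TASTPM mice Itgb2 and C3ar1 are at 2.33 at 8 months, HET_TASTPM mice have 4 called members at 8 and at 18 months, TAS10 mice have none, and TAU mice have 4 at 18 months only.

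Mice with both transgenes homozygous were also tested directly against hemizygous mice. These groups shared no lane number at any age, so no value within a lane number exists. Line and lane number cannot be told apart in these tests. At 2 months 0 members were called by limma (1.67% of all genes) and 0 had an unadjusted p under 0.05. At 4 months 1 member was called (1.51% of all genes), C3ar1, higher by 0.88 on the log2 scale (limma adjusted p = 0.000237), and by 1.06 in the 1 HO_TASTPM mouse left without the libraries that stood apart. At 8 months all 4 were called (13.8%): Itgam was higher by 0.82, Itgb2 by 1.20, C3ar1 by 1.27 and C5ar1 by 0.90 in HO_TASTPM mice (limma adjusted p = 0.00177, 5.62e-05, 2.19e-09 and 0.0155). All 4 were called without the libraries that stood apart too (here mouse 452), at 0.85, 1.18, 1.25 and 0.92. The C5ar1 call was lost without mouse 475 or mouse 454. At 18 months the lines stood closer, and only C3ar1 was called (6.42% of all genes), at 0.57 (limma adjusted p = 0.0215), a call lost without mouse 97, 493 or 154. The other differences were 0.35 for Itgam (95% interval -0.07 to 0.77), 0.46 for Itgb2 (-0.02 to 0.95) and 0.32 for C5ar1 (-0.27 to 0.90), which leaves room for a difference as well as for none.

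HO_TASTPM and TAU mice were set against each other at the later ages. At 8 months all 4 members were higher in HO_TASTPM (10.5% of all genes called), by 1.09, 2.26, 2.24 and 1.12 for Itgam, Itgb2, C3ar1 and C5ar1 on the log2 scale (limma adjusted p = 2.24e-05, 2.15e-13, 1.55e-21 and 0.00277), and all 4 were called without the libraries that stood apart (1.13, 2.24, 2.23 and 1.13). At 18 months, where these groups shared no lane number, all 4 differences were below 0. Itgb2 was lower in HO_TASTPM by -0.94 (limma adjusted p = 0.0277) and C3ar1 by -0.997 (limma adjusted p = 0.000202), the 2 members called (8.07% of all genes), while Itgam differed by -0.51 (95% interval -1.01 to -0.01, limma adjusted p = 0.233) and C5ar1 by -0.15 (-0.85 to 0.55). Both differences leaned on TAU mouse 1149: without it, which leaves TAU mouse 1150 alone, they were -0.69 and -0.69. The Itgb2 call was lost without HO_TASTPM mouse 113 or 154. The Itgam difference ran from -0.17 without mouse 1149 to -0.85 without mouse 1150.

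Steps between ages were also tested within lines, and their sizes were not compared between lines. In HO_TASTPM mice 2 members were called from 2 to 4 months (2.60% of all genes), Itgb2 at 0.79 and C3ar1 at 0.60 (limma adjusted p = 0.0353 and 0.0205), and neither call was kept without mouse 810 or mouse 968. Of the 8 mice, leaving out any of 5 ended the Itgb2 call and either of 2 the C3ar1 call. The libraries that stood apart include all but a single mouse of 4 months, so leaving them out cannot check these calls. From 4 to 8 months all 4 were called (11.6%), by 1.14 for Itgam, 1.67 for Itgb2, 1.55 for C3ar1 and 0.91 for C5ar1 (limma adjusted p = 1.48e-05, 2.85e-08, 3.83e-13 and 0.0166). Without the libraries that stood apart, which leaves a single mouse of 4 months, the steps of Itgb2 and C5ar1 were 1.33 and 1.09. The C5ar1 step was also lost without mouse 454 or mouse 811. From 8 to 18 months none was called by limma (0.403%) and 0 had an unadjusted p under 0.05.

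In HET_TASTPM mice no step was called from 2 to 4 months (0.0609% of all genes), where 0 members had an unadjusted p under 0.05 in limma. From 4 to 8 months 2 were called (0.563%), Itgb2 at 1.06 and C3ar1 at 1.16 (limma adjusted p = 0.00383 and 8.82e-08), the first lost without mouse 476. From 8 to 18 months the same 2 were called (0.540%), at 0.86 and 0.61 (limma adjusted p = 0.0492 and 0.0362), and without mouse 475 they were 0.61 and 0.38, neither called. Of the 8 mice, leaving out any of 6 ended the Itgb2 call and any of 5 the C3ar1 call. In TAU mice all 4 were called from 8 to 18 months, beside 24.8% of all genes, by 1.67, 3.32, 3.16 and 1.34 (limma adjusted p = 3.06e-08, 1.84e-17, 2.76e-25 and 0.00124).

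The members did not move in fixed proportion. The log2 ratio of Itgam to Itgb2 was 1.56 on average in wild-type mice of 8 months and 0.64 in HO_TASTPM mice, a difference of -0.92, with all 4 transgenic mice below all 8 wild-type mice. In an exact two-sided permutation test this gave p = 0.00404, the smallest that 4 against 8 mice can give, and 0.0404 adjusted over the 30 ratio tests. At 18 months the averages were 1.55 in wild-type, 0.59 in HO_TASTPM (difference -0.96, exact p = 0.0167, adjusted 0.05) and 0.70 in HET_TASTPM mice (difference -0.84, exact p = 0.0121, adjusted 0.0455). The difference in TAU mice was -1.39, where 2 against 7 mice cannot go below an exact p of 0.0556. The beta 2 chain thus gained on the alpha M chain in HO_TASTPM mice of 8 months and HET_TASTPM mice of 18 months, while the HO_TASTPM ratio of 18 months lay at the threshold. There all 3 mice were below all 7 wild-type mice, and an exact p of 0.0167 is the smallest that 3 against 7 mice can give. The log2 ratio of C3ar1 to C5ar1 rose from 0.45 to 1.12 in HO_TASTPM mice of 8 months (difference 0.68, exact p = 0.00404, adjusted 0.0404). Wild-type C5ar1 lies under the pseudocount of 0.5, which shrinks its change: with a pseudocount of 0.1 the difference was 0.51 (exact test, adjusted p = 0.0693).

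Each member was also set against the mean log2 level of 8 microglia genes (the reference). In HO_TASTPM mice of 8 months Itgb2 and C3ar1 rose above the reference, each by 0.46 (exact p = 0.00808 and 0.00404, adjusted 0.0455 and 0.0404), and Itgam changed by -0.47 (exact p = 0.0121, adjusted 0.0455). In HET_TASTPM mice of 18 months C3ar1 gained 0.37 on the reference (exact p = 0.00606, adjusted 0.0455) and Itgam changed by -0.28 (exact p = 0.0121, adjusted 0.0455). The Itgam change turned to 0.02 with Csf1r alone as the reference and was -0.17 without wild-type mouse 2152. The ratio of C5ar1 to the reference, -0.22 in HO_TASTPM mice of 8 months (exact p = 0.0444, adjusted 0.0877), has no firm direction, since it was 0.37 with a pseudocount of 0.1 and 0.07 with Aif1 alone as the reference. Past the threshold were 5 of 6 ratios in HO_TASTPM mice of 8 months, 3 in HET_TASTPM mice of 18 months, and 0 in HO_TASTPM mice of 18 months, HET_TASTPM mice of 8 months and TAU mice of 18 months. At 18 months the exact p cannot go below 0.0167 in HO_TASTPM and 0.0556 in TAU mice. None could pass in TAU mice, and counts of groups of unlike size cannot be set against each other. These adjusted p lie just under the threshold, and 0 of 6 passed in either group with a pseudocount of 1. Leaving out 1 mouse ended the HET_TASTPM calls in 10 of 11 tests for Itgam to Itgb2 and for Itgam to the reference, and in 9 for C3ar1 to the reference. In HO_TASTPM mice of 8 months it ended the calls of the 5 ratios in 4 to 9 of 12 tests. Leaving out mice also raises the smallest p that the test can give, and its part in these losses was not tested. The Itgam to reference ratios, at an exact p of 0.0121 in each group, were above that smallest p with all mice in. With 1 mouse left out their differences ran from -0.53 to -0.35 in HO_TASTPM mice of 8 months. In HET_TASTPM mice of 18 months they ran from -0.32 to -0.17. With 1 mouse left out the Itgam to Itgb2 difference ran from -1.02 to -0.76 in HO_TASTPM mice of 8 months and from -0.94 to -0.67 in HET_TASTPM mice of 18 months, and without the libraries that stood apart the former was -0.91.

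**Figure D3:**
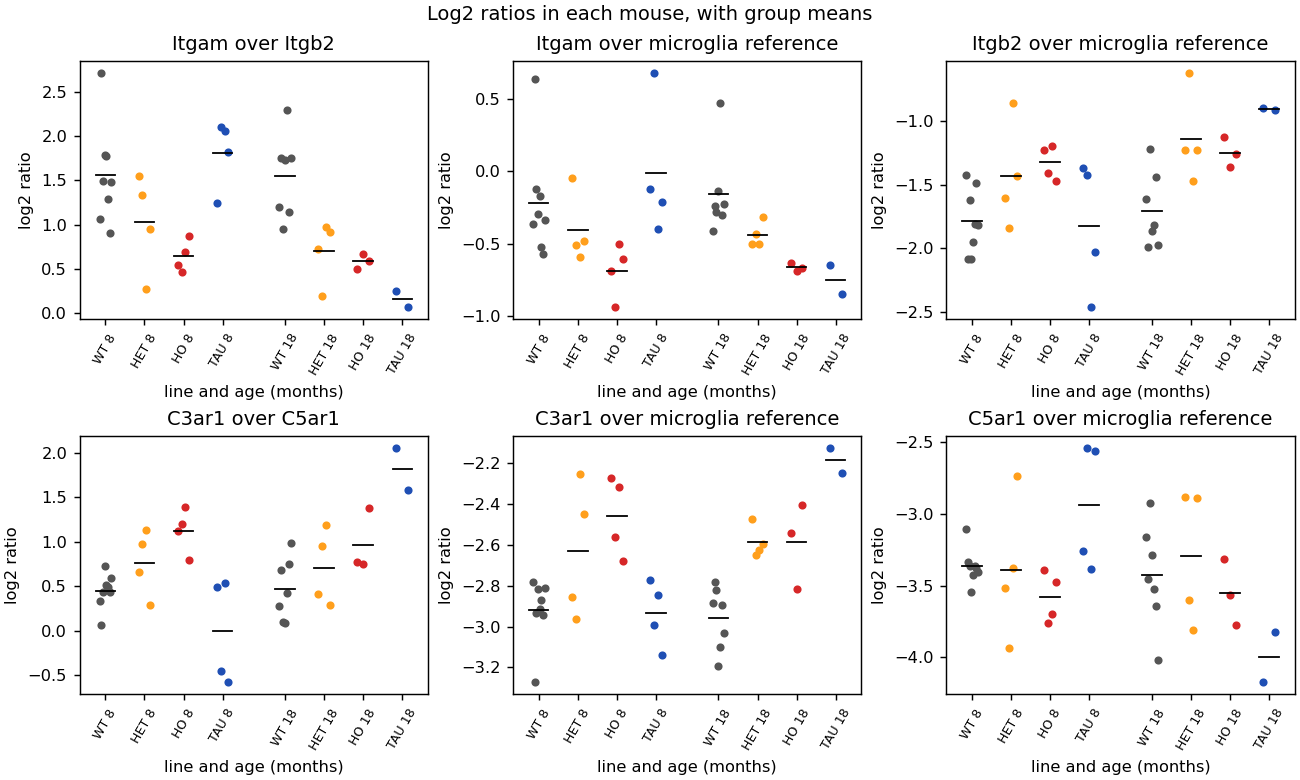
Log2 ratios per mouse at 8 and 18 months: Itgam to Itgb2, C3ar1 to C5ar1, and each member to the mean of 8 microglia genes, with 1 point per mouse and a bar at the group mean, for wild-type (WT), HET_TASTPM, HO_TASTPM and TAU mice. The Itgam to Itgb2 ratio averages 1.56 in wild-type mice of 8 months and 0.64 in HO_TASTPM mice of that age.

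Single wild-type libraries with high Itgam widened its ratio to Itgb2. Wild-type mouse 1472 of 8 months was at 13.9 TPM of Itgam against a median of 6.82 in the others of its group, with Itgb2 at 1.69 against 2.16. Wild-type mouse 2152 of 18 months was at 14.3 against 8.08, with Itgb2 at 2.51 against 2.71. TAU mouse 1463 of 8 months was also high in Itgam, at 14.1 against 8.12, but with Itgb2 at 2.89 against 1.94 and C5ar1 at 1.07 against 0.498. Its log2 ratio of Itgam to Itgb2, 2.11, was near the 2.06 of TAU mouse 1474 of that age. In these mice Csf1r, the colony-stimulating factor receptor of microglia, was near its group's median (23.4 against 21.0, 26.9 against 24.6 and 24.2 against 26.3 TPM). Without mouse 1472 the Itgam to Itgb2 difference of HO_TASTPM mice of 8 months was -0.76. Without mouse 2152 it was -0.83 in HO_TASTPM and -0.72 in HET_TASTPM mice of 18 months. All 3 libraries carry lane number 1, as do 20 libraries in all, and the part of the lane number in these ratios was not tested.

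The genes whose pattern was most like that of each member were sought over all libraries of the fit. Pearson's r of log2 values was highest with Cx3cr1, the fractalkine receptor, for Itgam (0.90), with the protease Ctss for Itgb2 (0.95), with the complement component C1qa for C3ar1 (0.97) and with Plek for C5ar1 (0.84). Mpeg1, a perforin-like gene of macrophages, was among the 5 closest for all 4 members. Among the members r was 0.86 for Itgam and Itgb2, 0.93 for Itgb2 and C3ar1, 0.82 for C3ar1 and C5ar1, and 0.72 for Itgam and C5ar1. These correlations are descriptions over libraries that share line and age. Over the 24 group means the 2 integrin chains had r of 0.98, and within groups only 0.23.

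Genes that act beside the receptors were counted from lists in HO_TASTPM mice of 18 months. There 7.83% of all genes were called and the median log2 difference over all genes tested was 0.01. Of the genes listed as other complement receptors 3 of 7 tested rose and none fell (median 0.31). They were Itgax, the alpha chain of complement receptor 4 (3.90, SE 0.28, limma adjusted p = 5.16e-20), C5ar2 (0.80, limma adjusted p = 2.46e-05) and Itgal (0.65, limma adjusted p = 0.0332). Itgal, the alpha chain of the beta 2 integrin LFA-1, is not itself a complement receptor, and its call was lost without mouse 1145, 113, 1161 or 154. Of the genes listed as ligands, with the related complement component C4b among them, 3 of 6 rose (median 0.70). C3 rose by 3.20, C4b by 2.86 and Icam1, an adhesion ligand of beta 2 integrins, by 1.45 (limma adjusted p = 2.34e-09, 2.59e-15 and 8.71e-09). Of 15 genes of beta 2 integrin activation and signalling 13 rose (median 1.37), led by the adaptors Tyrobp (3.01) and Fcer1g (2.58), the exchange factor Vav1 (1.76) and the kinase Fgr (1.63), with limma adjusted p of 3.61e-25, 7.46e-21, 1.18e-10 and 4.21e-10. Of 12 genes of anaphylatoxin receptor signalling and the phagocyte oxidase 11 rose (median 1.22), among them the oxidase subunits Cyba (2.22) and Ncf1 (1.58), the kinase gene Pik3cg (1.10) and the GTPase Rac2 (1.31), with limma adjusted p of 4.49e-15, 2.00e-10, 2.66e-09 and 6.58e-09.

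In the same mice, with 7.83% of all genes called, 5 of 11 receptors for other chemoattractants rose and none fell (median 0.49). Cx3cr1 rose by 1.44, the platelet-activating factor receptor Ptafr by 1.02, and the nucleotide receptors P2ry13 by 0.98 and P2ry12 by 0.49 (limma adjusted p = 2.55e-16, 1.14e-07, 8.42e-08 and 0.0166), the last 0.31 and not called without mouse 97. All 8 genes of the microglia reference rose (median 1.67), such as Ptprc (1.94), Cd53 (1.65) and Csf1r (1.48), with limma adjusted p of 7.27e-17, 8.82e-16 and 4.90e-19. The members' own differences at this age (1.21 to 2.16) thus spanned the reference median on this scale. The pseudocount of 0.5 shrinks the differences of low genes, so the place of C5ar1 (1.59) below that median depends on it. As ratios of mean TPM to wild-type, Itgam stood at 2.34, Itgb2 at 5.08, C3ar1 at 6.16 and C5ar1 at 5.07.

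The same lists were counted in the other groups, where 9.08% (HO_TASTPM of 8 months), 5.82% (HET_TASTPM of 18 months), 22.4% (TAU of 18 months) and 0.0571% (TAS10 of 18 months) of all genes were called. In HO_TASTPM mice of 8 months the risen genes numbered 2 of 7 on the list of other receptors and 3 of 6 on that of ligands. They further numbered 12 of 15 integrin signalling genes, 11 of 12 anaphylatoxin signalling genes, 6 of 11 chemoattractant receptors and 8 of 8 reference genes. In HET_TASTPM mice of 18 months they numbered 1, 1, 10, 9, 5 and 8 in the same order, and 1 gene of the first list, Cd93, fell. In TAU mice of 18 months they numbered 4, 3, 14, 11, 8 and 8. In TAS10 mice of 18 months 1 gene of these lists was called, Itgax, and the reference median was 0.29.

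**Figure D4:**
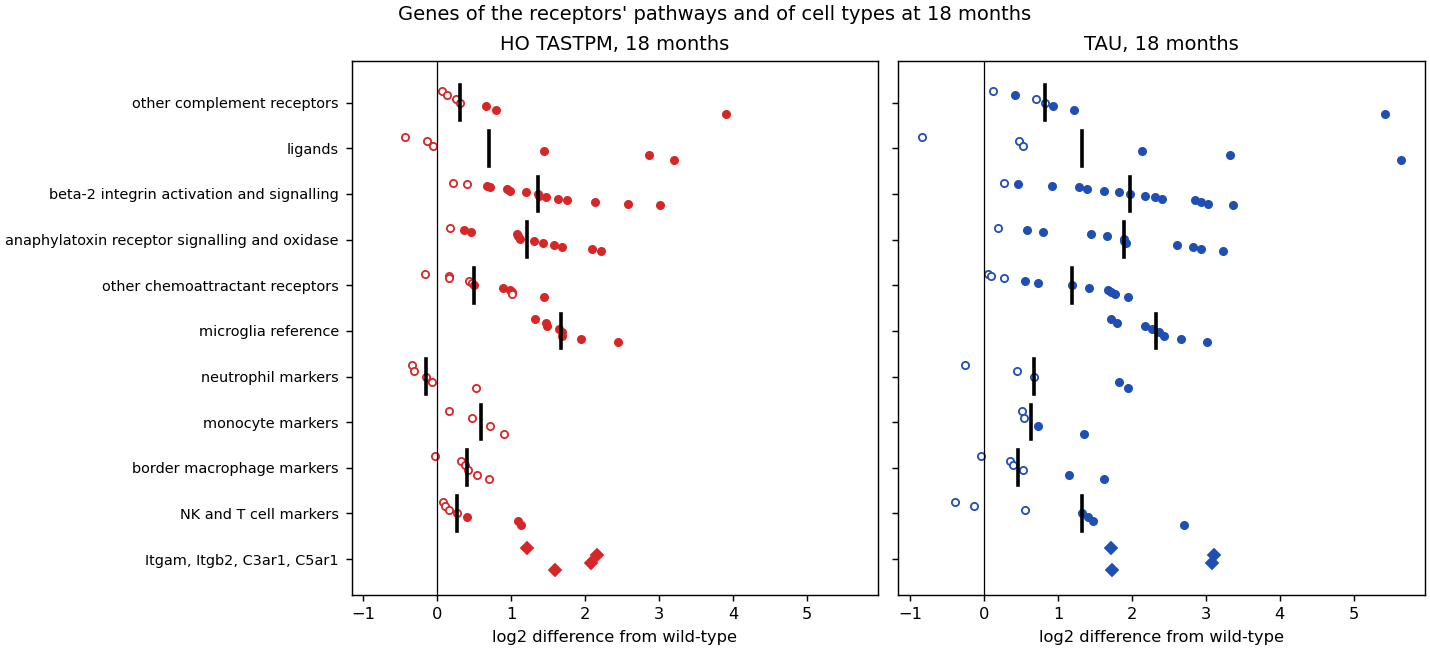
Log2 differences from wild-type (log2(TPM + 0.5) scale) of the tested genes of each list in HO_TASTPM and TAU mice of 18 months, 1 circle per gene, filled where the adjusted p is under 0.05, with a bar at the list's median and diamonds for the 4 receptors. The integrin signalling list has a median of 1.37 in HO_TASTPM mice and 1.97 in TAU mice, and the microglia reference 1.67 and 2.32.

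Other cells that carry these receptors were read from their markers. In HO_TASTPM mice of 18 months 7.83% of all genes were called. Of the neutrophil markers 5 of 9 could be tested, and none was called in these mice (median -0.15). Ly6g, Ngp, Ltf and Elane were at 0 in all 3 of these libraries, and the summed neutrophil level was 1.85 to 4.49 TPM against 1.88 to 11.1 in wild-type. None of 4 monocyte markers was called (median 0.59, summed 2.39 to 4.45 against 1.10 to 2.44 TPM) and none of 6 markers of border macrophages (median 0.40, summed 5.96 to 9.50 against 2.69 to 7.60 TPM). Of 7 markers of NK and T cells 3 rose (Nkg7, Cd3e and Cd8a), and their sum was 6.07 to 11.9 against 2.71 to 10.8 TPM. In the 2 TAU mice of 18 months, where 22.4% of all genes were called, 2 of 5 neutrophil markers rose (S100a8 and S100a9), 2 of 4 monocyte markers (Ccr2 and Chil3), 2 of 6 border macrophage markers (Mrc1 and Cbr2) and 4 of 7 NK and T cell markers, with sums of 8.66 to 17.5, 4.18 to 4.21, 10.1 to 11.9 and 9.61 to 15.6 TPM. Ly6g was at 0 in both. Markers named here, and Cd93 and Itgax above, were picked out after their values were seen. The part of these cells in the receptor levels of TAU mice was not tested.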

How the data were processed

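Libraries were made from hippocampal RNA with a stranded poly(A) kit and sequenced as 100-base pairs. Per the labels and the study's methods, the authors trimmed reads with Trim Galore, quantified them with Salmon on Ensembl transcripts of GRCm38, collapsed transcripts to genes by tximport, and deposited TPM values for 48526 gene rows. Versions of these tools: not given in the sources used here. Each library sums to 1000000 TPM, so the table holds no read count of any library. The study's methods give 1 nominal depth for all libraries, from which no interval for counting error was made. Values this low carry estimation error that the table does not show.

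Groups came from the labels. Genes whose mean reached 0.5 TPM in 1 or more groups entered limma 3.58.1 (R 4.3.3) on log2(TPM + 0.5), with 24 group means, a mean-variance trend and 79 residual degrees of freedom. Fold changes on this scale understate the change of low genes. 1 further line is in the fit and its results are not reported here. P-values were adjusted by Benjamini-Hochberg over 26272 genes in each comparison, at 0.05. Ratios were tested by exact two-sided permutation (Python 3.11.15, scipy 1.17.1, numpy 2.4.6, pandas 2.3.3), with 30 tests adjusted as 1 family. Figures used matplotlib 3.10.9. Both tests were tested on simulated data. Nothing says that mice of a group came from separate litters, so p-values measure spread between mice and not between litters. The limma fit takes 1 spread per gene from all 24 groups. Its p-values thus do not rest on the spread of the compared mice alone.

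Members and lists were chosen with earlier results of these data known. Text names all members, the genes of a list with the lowest adjusted p at 18 months in HO_TASTPM mice (up to 4 a list), and the 5 genes most like each member by Pearson's r. Positions are those of GENCODE M21 and promoters those of RefSeq, of which 3 of 4 members matched. Alternatives were the pseudocount (0.1, 1), the filter, quantile normalization, lane, trend, the groups fitted, the libraries that stood apart, the reference gene, and leaving out each mouse.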

Additional observations from a re-analysis of the deposited data

Results flagged for a closer look

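Single libraries lay far from the rest of their group for some members, by Dixon's test of the gap to the nearest value, in 7 of 64 tests of 1 member in 1 group. Chance gives about 1 in 20. Itgam was high in wild-type mouse 2360 of 2 months (9.84 TPM), wild-type mouse 1472 of 8 months (13.9), wild-type mouse 2152 of 18 months (14.3) and TAU mouse 1463 of 8 months (14.1), and the last 3 share lane number 1. C5ar1 was high in wild-type mouse 1824 of 2 months (0.885 TPM). Itgb2 was low in HET_TASTPM mouse 832 of 4 months (1.74 TPM), whose 3 group mates lay close together, and C3ar1 was low in TAU mouse 1809 of 2 months (0.542), a library whose Mapt level goes against its label.

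Transgenic lines of 1 age that share their wild-type mice differed from each other by limma's test of the difference. HO_TASTPM shared no lane number with HET_TASTPM at any age, nor with TAU at 18 months, so line and lane number cannot be told apart there. HO_TASTPM exceeded HET_TASTPM on the log2 scale for C3ar1 at 4 months (0.88), for Itgam (0.82), Itgb2 (1.20), C3ar1 (1.27) and C5ar1 (0.90) at 8 months, and for C3ar1 at 18 months (0.57). HO_TASTPM exceeded TAU at 8 months for Itgam (1.09), Itgb2 (2.26), C3ar1 (2.24) and C5ar1 (1.12). At 18 months HO_TASTPM minus TAU was -0.94 for Itgb2 and -0.997 for C3ar1.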

How the results depend on the processing

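All 4 members were called in HO_TASTPM mice of 8 months and in HO_TASTPM, HET_TASTPM and TAU mice of 18 months against wild-type under every alternative that gave a value for all 4, each left-out mouse included, and no member was called in wild-type mice between ages under any. The other counts of called members moved. Without the libraries that stood apart the count was 2 for HET_TASTPM of 8 months and 1 for TAS10 at 18 against 2 months. Comparisons with HO_TASTPM mice of 4 months then rest on 1 mouse, so no count is given for them. With only the 2 groups in the fit, which leaves fewer samples to estimate the spread, it was 2 for HET_TASTPM of 8 months, 0, 1 and 0 for HO_TASTPM against HET_TASTPM at 4, 8 and 18 months, 2 and 0 for HO_TASTPM against TAU at 8 and 18 months, 0 and 2 for the HO_TASTPM steps to 4 and 8 months, 0 for both HET_TASTPM steps after 4 months and 0 for TAS10 at 18 against 2 months. With lane as a covariate it was 2 for HET_TASTPM of 8 months, 0 for HO_TASTPM against HET_TASTPM of 18 months and 1 for the HO_TASTPM step to 4 months. A pseudocount of 0.1 gave 0 for HO_TASTPM against HET_TASTPM and 1 for HO_TASTPM against TAU at 18 months, 0 for HET_TASTPM at 18 against 8 months and 1 for TAS10 at 18 against 2 months. Quantile normalization gave 0 for HO_TASTPM against HET_TASTPM of 18 months and for the steps of HO_TASTPM to 4 months, HET_TASTPM to 18 months and TAS10 from 2 to 18 months, and no filter gave 1 for HET_TASTPM at 18 against 8 months. The cause was not tested in the other settings.

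With 1 mouse left out the counts ranged over 2 to 3 in HO_TASTPM mice of 4 months, 2 to 4 in HET_TASTPM mice of 8 months and 0 to 1 in TAS10 mice of 18 months against wild-type. They ranged over 3 to 4 and 0 to 1 for HO_TASTPM against HET_TASTPM at 8 and 18 months and 0 to 2 for HO_TASTPM against TAU at 18 months. For the age steps they ranged over 0 to 2 and 3 to 4 in HO_TASTPM to 4 and 8 months, 1 to 3 and 0 to 2 in HET_TASTPM to 8 and 18 months, and 0 to 2 in TAS10 from 2 to 18 months. The C5ar1 difference changed sign in TAS10 mice of 18 months (-0.0273 to 0.25, with -0.0145 without mouse 2155) and in HO_TASTPM against TAU at 18 months (-0.32 to 0.0306), and with lane as a covariate it was -0.0598 in HO_TASTPM against HET_TASTPM at 18 months.

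Of the 6 ratios the number past the threshold was 0 with a pseudocount of 1 and 0 without the libraries that stood apart in HO_TASTPM mice of 8 months, 3 with a pseudocount of 0.1 and 3 with Csf1r alone in HO_TASTPM mice of 18 months, 1 and 1 likewise in HET_TASTPM mice of 8 months, and 0 with a pseudocount of 1, 0 with Aif1 alone and 0 without the libraries that stood apart in HET_TASTPM mice of 18 months. Fewer mice raise the smallest p of these tests, and no library of 18 months stood apart, so that count fell through the adjustment over all 30 tests alone. With 1 mouse left out it ranged over 0 to 6 in HO_TASTPM mice of 8 months and 0 to 2 in HET_TASTPM mice of 18 months. Against the reference, C5ar1 turned to 0.37 (pseudocount 0.1) and 0.0739 (Aif1 alone) in HO_TASTPM mice of 8 months, 0.41 and 0.11 (pseudocount 0.1 and Csf1r alone) in those of 18 months, 0.28, 0.16 and 0.0070 (pseudocount 0.1, Csf1r alone and without the libraries that stood apart) in HET_TASTPM mice of 8 months, -0.13 (pseudocount 1) in those of 18 months and 0.0247 (Csf1r alone) in TAU mice. With 1 mouse left out it ranged over -0.25 to 0.16 in HET_TASTPM mice of 8 months (0.0108 without mouse 1462, 0.0158 without mouse 460) and -0.0027 to 0.31 in those of 18 months (-0.000461 without mouse 510). Itgam against Csf1r alone turned to 0.0209 in HET_TASTPM and 0.00794 in TAU mice of 18 months.

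The list genes were put through the same alternatives after their values were seen. The risen genes of the list of other complement receptors numbered 1 under the study's filter, which drops genes of low level. The risen chemoattractant receptors numbered 3 with lane number as a covariate, in lane number 3 alone or without mouse 97. No paired analysis was possible because the labels give mouse numbers and no replicate numbers shared between groups. The table holds no read count of single libraries, so no counting error was given for C5ar1, at under 1 TPM in wild-type mice, and groups of 2 or 3 mice limit the tests. The study's filter removes C5ar1 and so gave no count over 4 members.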

Other observations

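C5ar1 differed widely among the TAS10 libraries of 8 months. It was at 0.126 TPM in mouse 2442, 1.31 in mouse 2415 and 0.973 in mouse 2443, against 0.248 to 0.549 in wild-type mice. The library of mouse 2443 is the one whose App and Thy1 levels go against its label. Without it 1 library lay above the wild-type range and 1 below it.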
